A study of Rattus norvegicus with 5 samples.

Results

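In hearts of male Sprague-Dawley (SD) rats, 98 genes stood higher in an infarcted ventricle without intervention than in a normal one, and lower again in an infarcted ventricle that had carried a hydrogel suture loaded with the nitric oxide donor SNAP. These 98 members were chosen by measured values in all 5 libraries of the study. FPKM, a fragment count scaled to library depth and to gene length, is a level per length, and every difference given here is on the log2(FPKM + 1) scale. A member was at least 1 higher in the MI library than in the Normal library and at least 1 lower in the S-DTMS library than in the MI library, and genes that were at least 1 below MI in both the SNAP and the DTMS library were left out. The 98 members were drawn from 20646 genes in the deposited table, of which 13769 reached an FPKM of 1 in at least 1 library and are called the tested genes below. The rise and the fall are therefore what the selection asked for, and they are described here with no test.

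The Normal library came from rats aged 7 to 8 weeks without infarction. The other 4 groups were rats of the same sex, strain and age range whose left anterior descending coronary artery had been ligated. MI received no intervention after ligation. SNAP received the donor S-nitroso-N-acetylpenicillamine as an injection into the infarcted area. DTMS received the suture alone, a hydrogel thread worked into the infarcted wall. Its other end ran under the skin of the back to a pump reservoir that held saline. S-DTMS, which one sample label spells S-DTNS, received the same suture with SNAP solution in the reservoir. The labels place sampling at 1 month, whereas the methods of the study describe left ventricular wall collected a week after therapy, and this difference could not be resolved. Each group had 1 library, and the sources used here do not state whether 1 or several animals went into it. A legend of the study speaks of several independent replicates for this sequencing, which the single library per group does not show. Differences between groups are thus differences between single libraries, with no replicate spread to set them against. In bulk tissue, fewer cells of a type and less RNA per cell cannot be told apart.

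After a coronary occlusion the cardiomyocytes of the wall die, neutrophils and macrophages clear them, and activated fibroblasts lay down a collagen scar while the surviving muscle reactivates fetal genes. Nitric oxide activates soluble guanylyl cyclase in smooth muscle and cardiomyocytes, which raises cyclic GMP and relaxes vessels. SNAP releases nitric oxide spontaneously, and a suture fed from a reservoir is a route for repeated delivery to the wall. The deposited files identify genes by rat Ensembl number and do not pair the numbers with names, and none of the 98 members could be paired through the reference used here. The members are therefore described by their levels and by their rank in FPKM in MI, the 4 with identifiers excepted, and nothing is said of their functions. For the same reason the cardiac origin of the libraries was not checked against marker genes, and no promoter or protein sequence is shown.

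The 5 libraries were close in depth. Whole fragments were worked out from the steps between low FPKM values. The library totals that these steps imply lay between 16731024 and 17379225 fragments, or 0.977 to 1.02 times the Normal library. The S-DTMS library stood apart from the others. It differed by at least 1 from each of the other 4 libraries at between 1448 and 2000 tested genes, whereas the 6 pairs among the other libraries differed at between 555 and 1224. It was also the highest of the 5 libraries at 43.1% of tested genes. Every member depends on this library through the selection, so no value can be given without it, and the part of the library itself in the members' fall was not tested.

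Of the tested genes, 305 were at least 1 higher in MI than in Normal, which is 2.22%. Such a share of all tested genes past a limit is called the background of that comparison. S-DTMS was at least 1 below MI at 174 of these 305. Over all tested genes the share that low was 5.73%. SNAP and DTMS were both at least 1 below MI at 76 of the 174, and the remaining 98 are the members. The other 131 of the genes raised in MI were not lowered by 1 in S-DTMS. The rise and the fall used the same MI library, so a high value in that library alone would meet both. The MI library was the highest of the 5 at 73 of 98 members (74.5%), DTMS at 17 (17.3%) and SNAP at 8 (8.16%). Over all tested genes the shares were 15.96% for MI, 9.78% for DTMS and 5.93% for SNAP. The selection placed Normal and S-DTMS below MI at every member, so neither could be the highest. The counts for members are therefore partly fixed by the selection, and the share of SNAP lay near that over all tested genes.

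**Figure D1:**
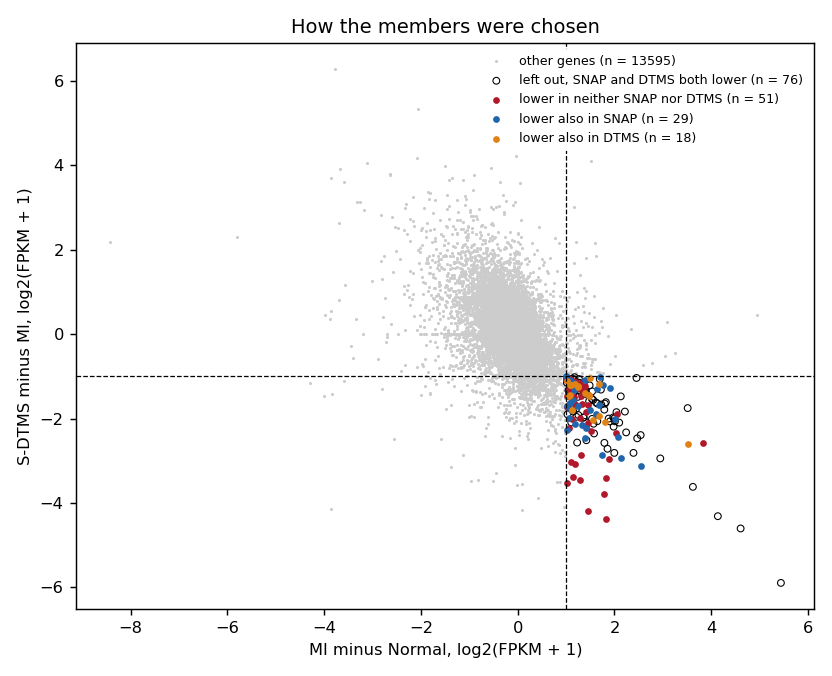
Each point is a tested gene, with the MI minus Normal difference on the horizontal axis and the S-DTMS minus MI difference on the vertical axis, both in log2(FPKM + 1), and dashed lines at the limits of 1 and -1. The 98 members, in 3 colours by what SNAP and DTMS did, share the lower right corner with 76 open circles, the genes left out because all 3 treated libraries were lower.

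The members were raised by a median of 1.27 in MI over Normal, against a median of -0.12 over all tested genes. From MI to S-DTMS they fell by a median of 1.60, while the tested genes as a whole moved by 0.15. From MI to SNAP the members' median was -0.70, against -0.14 over tested genes, and from MI to DTMS it was -0.42, against -0.06. The median FPKM of the members was 1.73 in Normal, 5.50 in MI, 2.78 in SNAP, 3.64 in DTMS and 0.805 in S-DTMS. In these medians SNAP and DTMS lay between Normal and MI, and S-DTMS lay under Normal.

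The limits divided genes of nearly equal values. The member nearest inside both limits was the same gene, with a rise and a fall of 1.00 each from 0 FPKM in Normal to 1.00 in MI and back to 0 in S-DTMS. The nearest genes outside had a rise of 0.99 or a fall of 0.99. At the corner where both comparison libraries decide, the last member kept had a smaller fall of -0.99 in SNAP, and the first gene left out had -1.005.

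Most of the RNA of the members came from a few genes. In MI, 11 members reached an FPKM of 100, 25 lay between 10 and 100, and 62 were under 10. Together the 98 members took 2.53% of all fragments in MI, 2.51% in SNAP and 2.21% in DTMS, against 0.673% in Normal and 0.615% in S-DTMS. A single member, ENSRNOG00000008536, supplied 66.5% of the members' fragments in MI. Without it the other 97 members took 0.265% in Normal, 0.848% in MI, 0.906% in SNAP, 0.592% in DTMS and 0.165% in S-DTMS. The selection itself placed Normal and S-DTMS below MI in both sums. MI was the highest library with that gene and SNAP without it. The lead of SNAP rested on the member ranked 3, ENSRNOG00000017786. It held 63833 of the 157418 fragments of the other 97 members in SNAP, and 41668 of 142413 in MI.

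ENSRNOG00000008536, the member with the highest FPKM in MI and singled out after its values were seen, had an FPKM of 2738 in Normal, 11287 in MI, 10788 in SNAP, 10877 in DTMS and 3018 in S-DTMS. The libraries fell into a low pair, Normal and S-DTMS, and a high trio of MI, SNAP and DTMS. MI stood 4.12-fold above Normal and 3.74-fold above S-DTMS, with a 95% interval of 3.71 to 3.77 for the second ratio from counting error. The intervals in this text are exact binomial ones on the whole fragments of 2 libraries. They cover counting error only and say nothing of the variation between rats. SNAP and DTMS differed from MI by -0.07 and -0.05 on the log2 scale, and both stayed in the high trio.

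The member ranked 2 in MI kept the same high trio but went lower in S-DTMS than in Normal. Its FPKM was 937 in Normal, 2072 in MI, 2124 in SNAP, 2175 in DTMS and 197 in S-DTMS. MI was 10.5-fold above S-DTMS (95% interval 10.03 to 11.04) and 2.21-fold above Normal, and Normal was 4.76-fold above S-DTMS. The members ranked 4, 6 and 12 also went lower in S-DTMS than in Normal, with MI, SNAP and DTMS all above Normal. DTMS was intermediate in the member ranked 6, differing by 0.49 from Normal and by -0.53 from MI on the log2 scale. The member ranked 4 had 311, 669, 495, 528 and 80.4 FPKM in Normal, MI, SNAP, DTMS and S-DTMS. The member ranked 6 had 138, 280, 256, 194 and 23.3 FPKM in the same order. The member ranked 12 had 32.6, 80.6, 76.8, 112 and 6.37 FPKM. In each of these 4 members S-DTMS was the lowest library, by a factor of 3.86 or more from Normal, and MI exceeded S-DTMS between 8.33-fold and 12.6-fold.

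ENSRNOG00000017786, ranked 3 in MI and also singled out after its values were seen as the steepest rise among members at or above 100 FPKM in MI, behaved in another way. Its FPKM was 150 in Normal, 1729 in MI, 2558 in SNAP, 442 in DTMS and 285 in S-DTMS. MI was 11.5-fold above Normal and 6.07-fold above S-DTMS (95% interval 5.91 to 6.22). Both libraries with a suture were low and both without one were high among the infarcted hearts. SNAP exceeded MI by 0.56 on the log2 scale, DTMS lay 1.97 under it (-1.97), and S-DTMS remained 0.92 above Normal. It was the only one of the 11 members at or above 100 FPKM in MI that was lowered by 1 in DTMS, and none of the 11 was lowered by 1 in SNAP.

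**Figure D2:**
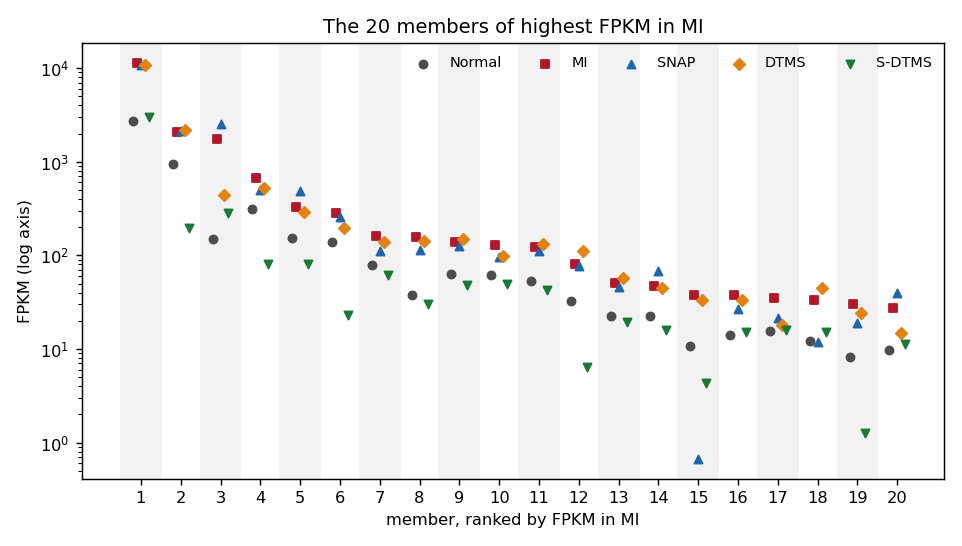
FPKM in the 5 libraries, on a log axis, of the 20 members with the highest FPKM in MI, ordered by that rank, with 1 marker per library. S-DTMS is the lowest marker for most of them, far below Normal for the members ranked 2, 4, 6, 12 and 19, while the member ranked 15 is lowest in SNAP.

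The other 6 members of this abundant class varied in their falls. The member ranked 5 had 152, 331, 482, 294 and 81.7 FPKM in Normal, MI, SNAP, DTMS and S-DTMS, the highest of them in SNAP. The member ranked 8 had 37.9, 157, 114, 142 and 29.98 FPKM. Those ranked 7, 9, 10 and 11 had between 122 and 162 FPKM in MI and between 42.4 and 61.1 in S-DTMS, and in each of them S-DTMS was below Normal. Across the 11 abundant members the median of S-DTMS minus MI was -2.00, beside -0.14 for SNAP and -0.17 for DTMS. S-DTMS was the lowest library in 9 of these 11 members.

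The members fall into 3 classes by what SNAP and DTMS did, and these classes are again set by the selected values. In 51 members, 52.0%, neither library was lowered by 1. In 29, 29.6%, SNAP was lowered by 1 as well, where the background over tested genes was 4.01%. In 18, 18.4%, DTMS was lowered by 1 as well, with a background of 3.19%. Among the 131 genes raised in MI and not lowered in S-DTMS both shares were higher, 35.9% for SNAP and 38.9% for DTMS, with genes lowered in both still counted there and left out of the members. The 3 treated libraries were all compared with the same MI library, so these shares rise together where MI is high. Abundance differed between the classes: 26 of the 51 members lowered in neither library reached 10 FPKM in MI, against 7 of the 29 lowered also in SNAP and 3 of the 18 lowered also in DTMS.

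**Figure D3:**
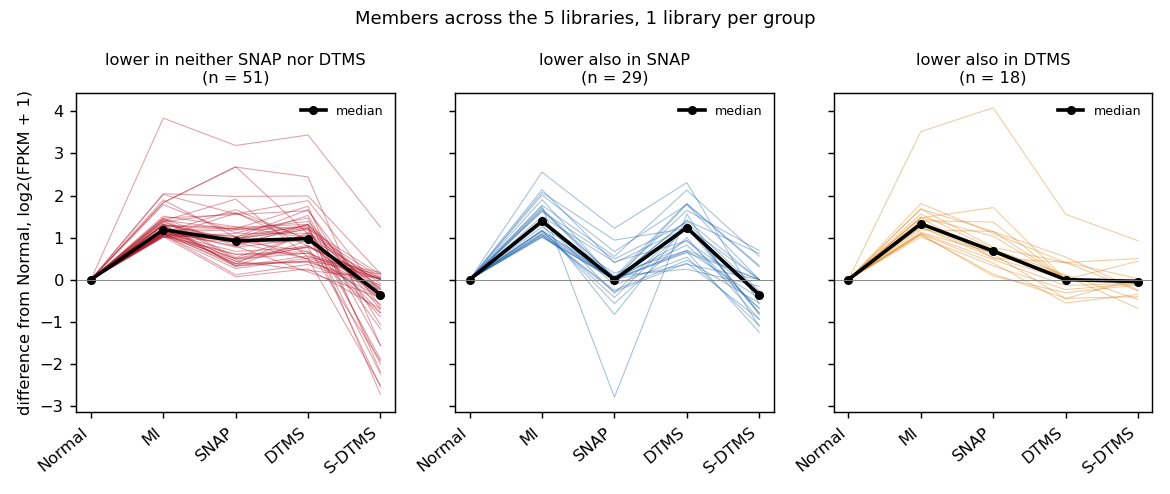
Difference from Normal in log2(FPKM + 1) across the 5 libraries, with 1 thin line per member, a black line for the median and a panel for each class (n = 51, 29 and 18). The median line stays high through SNAP and DTMS in the first panel, returns to 0.00 in SNAP in the second and to 0.00 in DTMS in the third.

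In the class lowered in neither library, medians against MI were -0.41 in SNAP, -0.34 in DTMS and -1.65 in S-DTMS. The selection itself put S-DTMS below both SNAP and DTMS at all 51 of these members, so only the size of the gap was free. S-DTMS was at least 1 below both at 29. The selection also put SNAP and DTMS above Normal in this class, by medians of 0.92 and 0.97, whereas S-DTMS was at a median of -0.36. SNAP and DTMS both lay within 0.5 of MI at 22 members, 14 of them at or above 10 FPKM in MI. A small difference from MI was common among genes in general and no mark of the members. The quartiles over all tested genes were -0.38 and 0.07 for SNAP minus MI, and -0.27 and 0.13 for DTMS minus MI. The members ranked 1, 2, 4 and 12 are among these 22, and so is the member ranked 26, with 8.14 FPKM in Normal, 19.8 in MI, 20.2 in SNAP, 20.8 in DTMS and 1.46 in S-DTMS.

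In the class lowered also in SNAP, the median against MI was -1.34 in SNAP, -1.70 in S-DTMS and -0.29 in DTMS. Both libraries that received the donor were therefore low, and DTMS, above Normal by selection, was a median of 1.24 above it. The member ranked 15 had 10.6 FPKM in Normal, 37.9 in MI, 0.671 in SNAP, 33.3 in DTMS and 4.38 in S-DTMS. It went lower in SNAP than in S-DTMS, from 273 fragments in MI to 5 in SNAP and 32 in S-DTMS. The member ranked 18 had 12.2, 33.6, 11.97, 44.7 and 15.3 FPKM in Normal, MI, SNAP, DTMS and S-DTMS, so that SNAP and S-DTMS sat close to Normal and DTMS was the highest. The member ranked 29 had 1.67, 14.7, 5.22, 12.2 and 0.794 FPKM in that order. MI exceeded Normal 8.80-fold in that member, and S-DTMS was the lowest library.

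In the class lowered also in DTMS, the median against MI was -1.39 in DTMS and -1.42 in S-DTMS, beside -0.67 in SNAP. S-DTMS and DTMS were level in this class, with a median difference of 0.00, and S-DTMS was at least 1 below DTMS at none of the 18. Besides ENSRNOG00000017786, this class held 2 members at or above 10 FPKM in MI. The member ranked 22 had 10.3, 26.0, 16.3, 7.30 and 10.5 FPKM in Normal, MI, SNAP, DTMS and S-DTMS. The member ranked 28 had 8.01, 17.2, 10.3, 6.64 and 7.42 FPKM in that order. In both, DTMS was the lowest library and S-DTMS lay within 0.10 of Normal on the log2 scale, with values of 0.02 and -0.10.

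**Figure D4:**
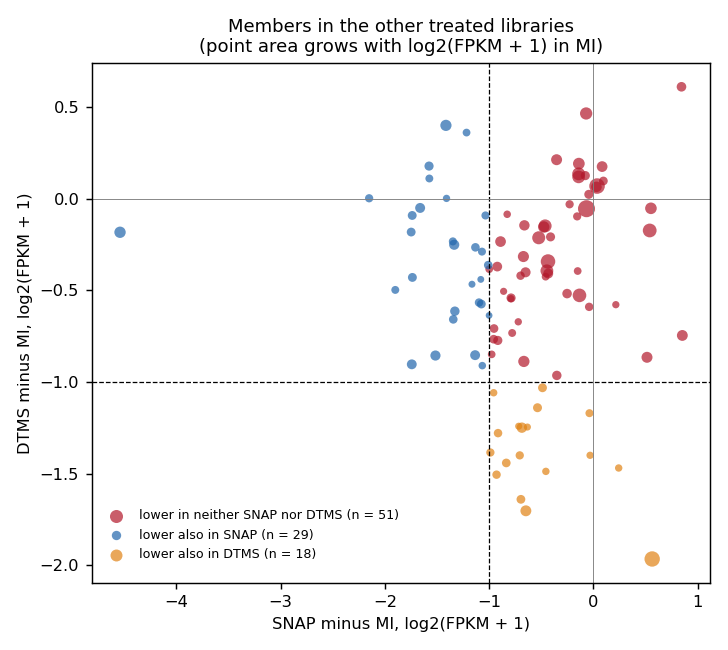
SNAP minus MI against DTMS minus MI for the 98 members, both in log2(FPKM + 1), coloured by class, with point area growing with the level in MI and dashed lines at -1. Most of the largest points lie near 0 on both axes, ENSRNOG00000017786 being the large point at 0.56 and -1.97, and no member lies in the lower left corner, which the selection left empty.

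Comparing the treated libraries with each other does not go through MI, although S-DTMS still entered the selection. S-DTMS was at least 1 below DTMS at 57 of 98 members, where the background was 4.61%, and at least 1 below SNAP at 45, where it was 3.34%. It was at least 1 below both at 33 members. By any amount, S-DTMS was below both at 74 members, and at the 51 of them lowered in neither the selection fixed this. S-DTMS was the lowest of the 5 libraries at 56, where 19.3% of tested genes had it lowest. The members' medians were -1.23 for S-DTMS minus DTMS and -0.82 for S-DTMS minus SNAP, beside 0.25 and 0.31 over all tested genes. A low S-DTMS value was required of every member, so these counts describe the selected genes and are no separate evidence.

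SNAP and DTMS were also set against Normal at the members. DTMS was at least 1 above Normal at 40 members, with a background of 1.63%, and SNAP at 29, with a background of 1.79%. Both were at least 1 above Normal at 17 members, 13 of which had at least 10 FPKM in MI. By any amount both were above Normal at 72 of the 98. These comparisons share the Normal library with the rise that selected the members. The selection also fixed that SNAP or DTMS exceeded Normal at every member, and that both did at the 51 lowered in neither. The counts therefore describe the selected genes and are no separate evidence. SNAP exceeded MI at 12 members, 12.2%, and DTMS exceeded MI at 18, 18.4%, and at 5 members both did. Over all tested genes the upper quartile was positive, at 0.07 for SNAP minus MI and 0.13 for DTMS minus MI. Exceeding MI in either library was therefore more common among tested genes than among members.

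Against Normal, S-DTMS lay within 1 at 82 of the 98 members, or 83.7%. Of the 13769 tested genes only 1448 lay 1 or more from Normal, so lying within 1 was usual and no mark of the members. The scale sets part of the members' count, since a gene under 1 FPKM in Normal cannot lie 1 below it, and 34 members were that low. Of the other 64, S-DTMS was within 1 of Normal at 49. It was at least 1 below Normal at 15, where 5.88% of tested genes were that low, and at least 1 above Normal at 1, where 4.63% were that high. By any amount it was below Normal at 64 members, and the median was -0.31, beside 0.03 over all tested genes. Of the 15 members under Normal, 12 had been lowered in neither SNAP nor DTMS, 3 had been lowered also in SNAP, and none also in DTMS. Of these 15, 12 reached 10 FPKM in MI, and of the 34 members that could not be 1 below Normal only 1 did.

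**Figure D5:**
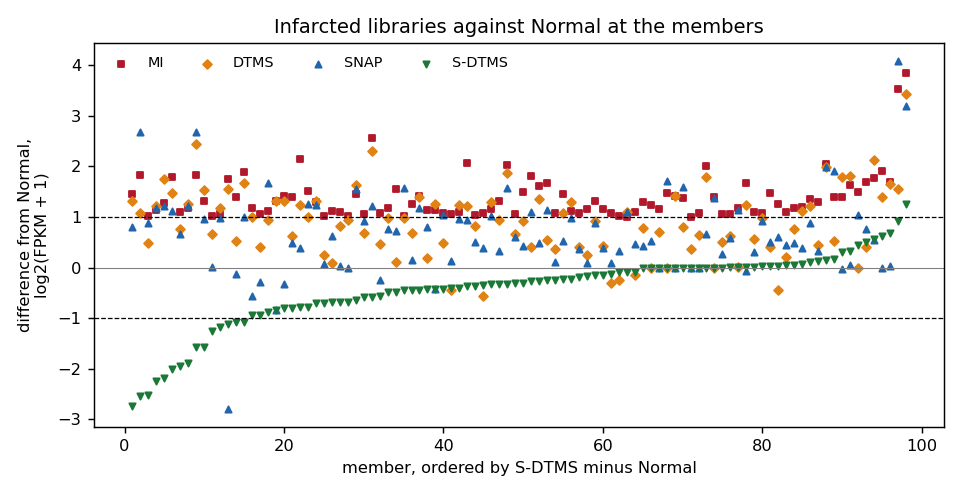
Difference from Normal in log2(FPKM + 1) of the MI, SNAP, DTMS and S-DTMS libraries for the 98 members, ordered by S-DTMS minus Normal, with dashed lines at -1 and 1. The S-DTMS series runs from -2.73 to 1.25 and crosses -1 after 15 members, while the MI points are all above 1 by selection.

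The deepest falls among members with at least 10 FPKM in MI were those of ENSRNOG00000042897 and ENSRNOG00000003537, the genes that the naming rule picked. ENSRNOG00000042897 had an FPKM of 6.26 in Normal, 24.9 in MI, 45.8 in SNAP, 14.4 in DTMS and 0.242 in S-DTMS. These values came from 182, 709, 1351, 410 and 7 fragments. It was highest in SNAP and nearly absent in S-DTMS, with MI 103-fold above S-DTMS (95% interval 49.6 to 257), or a difference of -4.38. ENSRNOG00000003537 had an FPKM of 5.68 in Normal, 17.4 in MI, 10.6 in SNAP, 15.6 in DTMS and 0.00738 in S-DTMS. Its fragments numbered 773, 2317, 1466, 2077 and 1. With 1 fragment in S-DTMS the ratio of MI to S-DTMS was 2352, with an interval from 422 to 92930, and the difference was -4.19. Both genes were well covered in the other 4 libraries, Normal included, and among these 5 libraries such a low value was seen in S-DTMS alone.

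The member ranked 19 came next in this pattern. It had 8.16 FPKM in Normal, 30.5 in MI, 18.8 in SNAP, 24.3 in DTMS and 1.28 in S-DTMS, and MI was 23.9-fold above S-DTMS. The one member that stayed at least 1 above Normal in S-DTMS, ranked 31, was listed at 0 FPKM in Normal, with 13.3 in MI, 8.12 in SNAP, 9.84 in DTMS and 1.38 in S-DTMS. It rested on 19 fragments in MI and 2 in S-DTMS, and the interval of the ratio ran from 2.33 to 85.4. The member ranked 37 was the reverse, with 1.98 FPKM in Normal, 9.59 in MI, 18.0 in SNAP, 15.2 in DTMS and 0 in S-DTMS. Its 19 fragments in MI against none in S-DTMS give a ratio of 6.43 when S-DTMS is set to the floor of 3 fragments. The exact interval, which also takes in the counting error of the MI library, starts lower, at 4.74.

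Depth limited the low end of the list. The MI value rested on fewer than 20 fragments at 21 members and on at least 100 at 57. All 12 members listed at 0 in S-DTMS were among the 21, so their absence was not detectable apart from a low level at this depth. Since the selection fixed the rise and the fall, their counting intervals speak to depth only: they lay clear of equal levels for both at 84 of the 98 members.

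The members also differed from the tested genes in the length that the FPKM steps imply. Their median was 1444 bases against 2119, and 24.5% were under 500 bases against 9.30%. This was not particular to the members. The share under 500 bases was 36.8% in the 76 genes left out and 44.3% in the 131 raised genes not lowered in S-DTMS. Short genes reach a given FPKM on few fragments. Among genes with at least 100 fragments over the 5 libraries the median was 1920 bases at 71 members against 2308. The share under 500 bases there was 1.41% of members, which is 1 gene of 71, against 3.19%, too few to compare.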

How the data were processed

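Left ventricular RNA was sequenced on an Illumina NovaSeq, with 1 library in each of 5 groups. The authors deposited FPKM per rat Ensembl gene. The submitters' processing notes name HTSeq and mm9 with no role, mm9 being a mouse build, and the aligner and annotation are not given in the sources used here. The study named edgeR, which was not run, since FPKM from single libraries gives no count model and no residual variation. Differences were taken on log2(FPKM + 1) over the 13769 genes that reached an FPKM of 1 somewhere in the 5 libraries, and passing means a difference of at least 1.

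Whole fragments were worked out from the steps of the FPKM values, with a tolerance of 0.004 of a fragment and the smallest length that gave whole fragments in all libraries, so a gene whose fragments share a divisor can be given too few. This gave whole fragments for 20304 of the 20304 genes above 0, with 99.1% to 99.3% of each library on listed genes, and was tested on simulated data. Ratio intervals are exact 95% binomial intervals. The floor for 0 is 3 fragments.

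The members and lists were chosen with earlier results of these data known. The naming rule took the largest falls from MI to S-DTMS among members with at least 10 FPKM in MI. The 39 gene lists and the marker genes were not used, as 0 of 20646 identifiers could be paired with a symbol. For the same reason near-identical gene copies were not analysed here. Of 8 alternatives, 7 were planned and 1 was added after seeing the data. Tables were read with pandas 2.3.3, intervals came from SciPy 1.17.1, and plots from Matplotlib 3.10.9, under Python 3.11.15 with NumPy 2.4.6.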

Additional observations from a re-analysis of the deposited data

How the results depend on the processing

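No paired analysis was possible because there is 1 library for each group, and no library could be left out because the selection needs all 5. No value reversed under the 8 alternatives, but this says little. A count cannot reverse, and the medians of the rise and the fall were taken over genes selected again for that sign. All 98 members kept their rise and their fall in sign under both other scalings. That was bound to hold, since these scalings shifted the libraries by much less than the limit of 1. The number of members depended on the scale. With a pseudocount of 0.1 the selection gave 367 genes, 84 of the 98 among them, of which 138 were lowered in neither library, 140 also in SNAP and 89 also in DTMS, with 287 within 1 of Normal in S-DTMS, 68 below and 12 above, and medians of 1.46 for the rise, -1.87 for the fall and 0.00 for S-DTMS minus Normal. With genes of at least 5 FPKM it gave 54, all among the 98, with 13 lowered also in SNAP, 6 also in DTMS and 39 within 1 of Normal, and medians of -1.96 for S-DTMS, -0.48 for SNAP and -0.24 for DTMS against MI and -0.44 for S-DTMS minus Normal. Scaling by the median of ratios, which moved the median of all tested genes in S-DTMS minus MI from 0.15 to -0.0031, gave 148, the 98 included, with 84 in neither, 32 also in DTMS and 24 below Normal. TPM, which moved that median to 0.29, kept 87 of the 98 and gave 45 also in SNAP and 2 above Normal. Relative to the median difference of all genes there were 181, the 98 included, with 118 in neither, 33 also in DTMS, 155 within 1 of Normal and 25 below. With a limit of 2, 7 members remained, 2 in neither, 4 also in SNAP and 1 also in DTMS, with 6 within 1 of Normal and 0 below, and medians of 2.14 for the rise, -2.59 for the fall and -1.13 for SNAP minus MI. With at least 20 fragments in MI and S-DTMS together 80 of the 98 remained, and without the 10 most abundant genes in the library totals there were 128, the 98 included. Of the 128 values recomputed under the alternatives, 47 moved beyond the margin set for them.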
